A study of Mus musculus with 4 samples.

Results

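The 39 genes described here encode proteins of DNA replication and S phase, the phase of the cell cycle in which a cell copies its DNA. They were chosen by name from a list and not by a limit on measured values, though with earlier results of these data known. All 39 were found among the 32285 genes of each of the 4 deposited matrices. They were followed in mouse bone marrow cells sorted as CD45.2+, lineage-negative, Sca1+ and Kit+ (LSK), which are the blood stem cells together with their first multipotent progeny. The marrow was taken 10 weeks after transplantation, and each library was stained with 6 barcoded antibodies, CD150 and CD48 among them. There was 1 library for each of 4 genotypes: a control, a deletion of Mll3, a deletion of Mll4 and a deletion of both genes (Mll3/4). Mll3 and Mll4 are histone H3 lysine 4 methyltransferases encoded by Kmt2c and Kmt2d. The strain, the driver and timing of the deletions, the genotype of the controls beyond that label and the number of mice behind a library are not given in the sources used here. With 1 library per genotype, cells are not replicates and no test of a genotype can be made. Every interval is a 95% interval for counting error, which leaves out differences between animals and between library preparations.

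DNA replication starts at origins that are licensed when Cdc6 and Cdt1 load the ring of Mcm2 to Mcm7 onto DNA. Cyclin E with its kinase, and the E2F transcription factors that raise many of these genes together, carry a cell into S phase, where Cdc45, the GINS complex and Mcm10 turn the ring into a moving helicase and polymerases copy both strands behind it. Most LSK stem cells are quiescent and divide seldom, while the progenitors beside them divide often, so the level of such genes in a pool of LSK cells moves both with the share of dividing cells and with the level in each of them. These 2 cannot be told apart in a summed level. Shares of barcodes are given after the levels. The shares called from the listed genes also move with the level in each cell, so they do not separate the 2 either.

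The libraries differed in more than their labels. Cell barcodes were kept when they held 1000 or more genes and no more than 10% of their UMIs (unique molecular identifiers, 1 for each captured transcript) were mitochondrial. This left 7274 barcodes in the control library, 6101 where Mll3 was labelled deleted, 4793 where Mll4 was and 4748 where both were. Sets of 4 values follow that order below, and sets of 3 ratios to control follow it without the control. The 4 libraries held between 50792614 and 120700343 UMIs in these barcodes, the median barcode held 14454, 15381, 21400 and 8920, and pairs of libraries shared 7 to 14 barcode sequences. Kmt2c was at 68.9, 35.3, 61.3 and 42.3 CPM (UMIs of a gene per 1000000 UMIs of the library) and Kmt2d at 24.6, 21.6, 22.6 and 25.4 CPM, so that Kmt2d was little below the control where Mll4 was labelled deleted (21.7 to 23.4 against 23.7 to 25.5) and not below it where both genes were (24.0 to 26.8). Counts at the 3-prime end of a message need not see a deletion further upstream, and the libraries are named by their labels. Among markers of the sorted population, Kit was at 215, 216, 362 and 246 CPM and Ly6a, which encodes Sca1, at 93.4, 133, 119 and 255 CPM. In the Mll3/4-labelled library Cd34 and Procr were nearly absent, at 5.18 and 0.138 CPM against 332 and 32.3 in the control. Summed levels of 10 B-lineage markers were 59.2, 333, 61.7 and 12608 CPM, none of the markers being at 0, and 4673 of 4715 Mll3/4-labelled barcodes (99.1%) held a UMI of at least 4 of them after thinning to 3000 UMIs, against 16 of 7260 in the control. Markers of other blood lineages stood out in the Mll4-labelled library, where 2108 of the 4793 barcodes (44.0%) carried at least 3 markers of 1 such lineage, against 2.68% of the control, 2.97% of the Mll3-labelled and 0.316% of the Mll3/4-labelled barcodes. Of these, 1033 carried macrophage or monocyte markers, 700 mast cell or basophil markers and 259 plasma or mature B markers. Mll4-labelled results are given with these barcodes, and without them for most of the gene groups, shares and named ratios described. For the Mll3/4-labelled library no such value can be had, because its B-lineage-marker barcodes are nearly all of it, and its genotype and its B-lineage content cannot be told apart.

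The promoters of the listed genes were read for letters of cell cycle motifs. Of the 39 genes, 31 had at least 1 entry in a RefSeq table of promoters on GRCm38.p6, 36 promoters in all, each from 250 bases before to 50 after the start site. Any of 4 E2F-type motifs (TTTCGCGC, TTTGGCGC, TTCCCGC and TTCGCGC, on either strand, of which the last lies within the first) was in 22 of the 36 (61.1%), against 6.43% of all 32851 promoters. The CCAAT box, bound by the factor NF-Y, was in 20 of the 36 (55.6%) against 37.4% of all. The letters TTTGAA or TTCGAA, part of an element of late cell cycle promoters, were in 4 of the 36 (11.1%) against 19.2%. The stretches below, 120 bases each, were picked after the levels were known. They show the motifs in 2 helicase subunits that were below the control in the Mll3/4-labelled library to different degrees, in a licensing regulator, in both subunits of ribonucleotide reductase, whose ratios differed in sign, and in Ccne1, the gene with the highest ratio. Capitals mark E2F-type letters and CCAAT boxes on either strand.
Mcm5, chr8:75109339-75109458, plus strand: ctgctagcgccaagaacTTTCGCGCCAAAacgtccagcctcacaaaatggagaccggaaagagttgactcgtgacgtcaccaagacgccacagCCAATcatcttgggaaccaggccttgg
Mcm6, chr1:128359706-128359825, minus strand: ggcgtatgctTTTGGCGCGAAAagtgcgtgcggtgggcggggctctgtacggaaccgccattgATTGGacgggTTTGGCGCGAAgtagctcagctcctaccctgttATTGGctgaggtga
Dtl, chr1:191575545-191575664, minus strand: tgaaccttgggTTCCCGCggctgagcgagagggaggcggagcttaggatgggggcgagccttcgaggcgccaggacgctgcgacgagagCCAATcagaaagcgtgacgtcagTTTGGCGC
Rrm1, chr7:102441575-102441694, plus strand: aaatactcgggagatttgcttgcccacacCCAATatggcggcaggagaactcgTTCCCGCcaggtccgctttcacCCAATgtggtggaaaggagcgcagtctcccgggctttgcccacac
Rrm2, chr12:24708104-24708223, plus strand: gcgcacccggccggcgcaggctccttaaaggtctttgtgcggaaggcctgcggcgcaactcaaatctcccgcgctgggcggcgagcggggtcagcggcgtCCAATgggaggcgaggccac
Ccne1, chr7:38107541-38107660, minus strand: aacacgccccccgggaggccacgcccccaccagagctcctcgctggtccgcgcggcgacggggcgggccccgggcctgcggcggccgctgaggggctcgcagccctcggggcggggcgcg
Mcm5 and Mcm6 carry E2F-type letters in their stretches, Mcm6 at more than 1 place. Rrm1 holds 1 such match and CCAAT at more than 1 place, Rrm2 holds CCAAT and no E2F-type match, and Ccne1 holds neither. A match is a description of letters and not evidence of binding, and a missing match says only that these letters are not in the window.

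As a whole, the listed genes were slightly higher than the control in the Mll3-labelled library and lower in the other two. Their summed level was 3692 CPM in the control (3682 to 3703), then 4154 (4142 to 4167), 2991 (2982 to 3001) and 2951 (2936 to 2966). The median log2 ratio to control over the 39 genes was 0.18, -0.30 and -0.55. All genes whose mean in the compared libraries reached 20 CPM had medians of 0.10, -0.12 and -0.07. In the Mll3-labelled library 0 of 39 listed genes were lower and 2 higher by at least 1.5-fold, where 3.21% and 1.99% of all genes were. In the Mll4-labelled library 9 were lower and 3 higher, where 13.8% and 11.8% of all genes were. In the Mll3/4-labelled library 18 were lower and 3 higher, where 18.7% and 13.1% of all genes were. The 39 genes were counted without a filter, and 36, 37 and 36 of them reached the mean of 20 CPM that the background genes had to reach. The Mll3-labelled library was the highest of the 4 for 26 of the genes and the lowest for none, while the Mll3/4-labelled library was the lowest for 26 and the highest for 6. These counts have no share over all genes beside them and describe the list only. Of all genes with a mean of 20 CPM, 4246 of 6084 were above the control in the Mll3-labelled library. In the Mll3/4-labelled library 3349 of 5979 were below it. The Mll4-labelled values changed with the barcodes counted: without the barcodes that carried markers of other lineages, the list median was -0.10 (-0.12 over all genes), with 3 genes lower (Tipin, Tyms and Chaf1b) and 4 higher (Ccne2, Ccne1, Mcm7 and Rrm2), where 10.6% and 9.34% of all genes were. The Mll3-labelled median exceeded that of all genes by little, and was 0.08 under TMM (trimmed mean of M-values) scaling, which shifts every ratio of that library by -0.10. Median-of-ratios scaling shifts every Mll3/4-labelled ratio by 0.11.

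**Figure D1:**
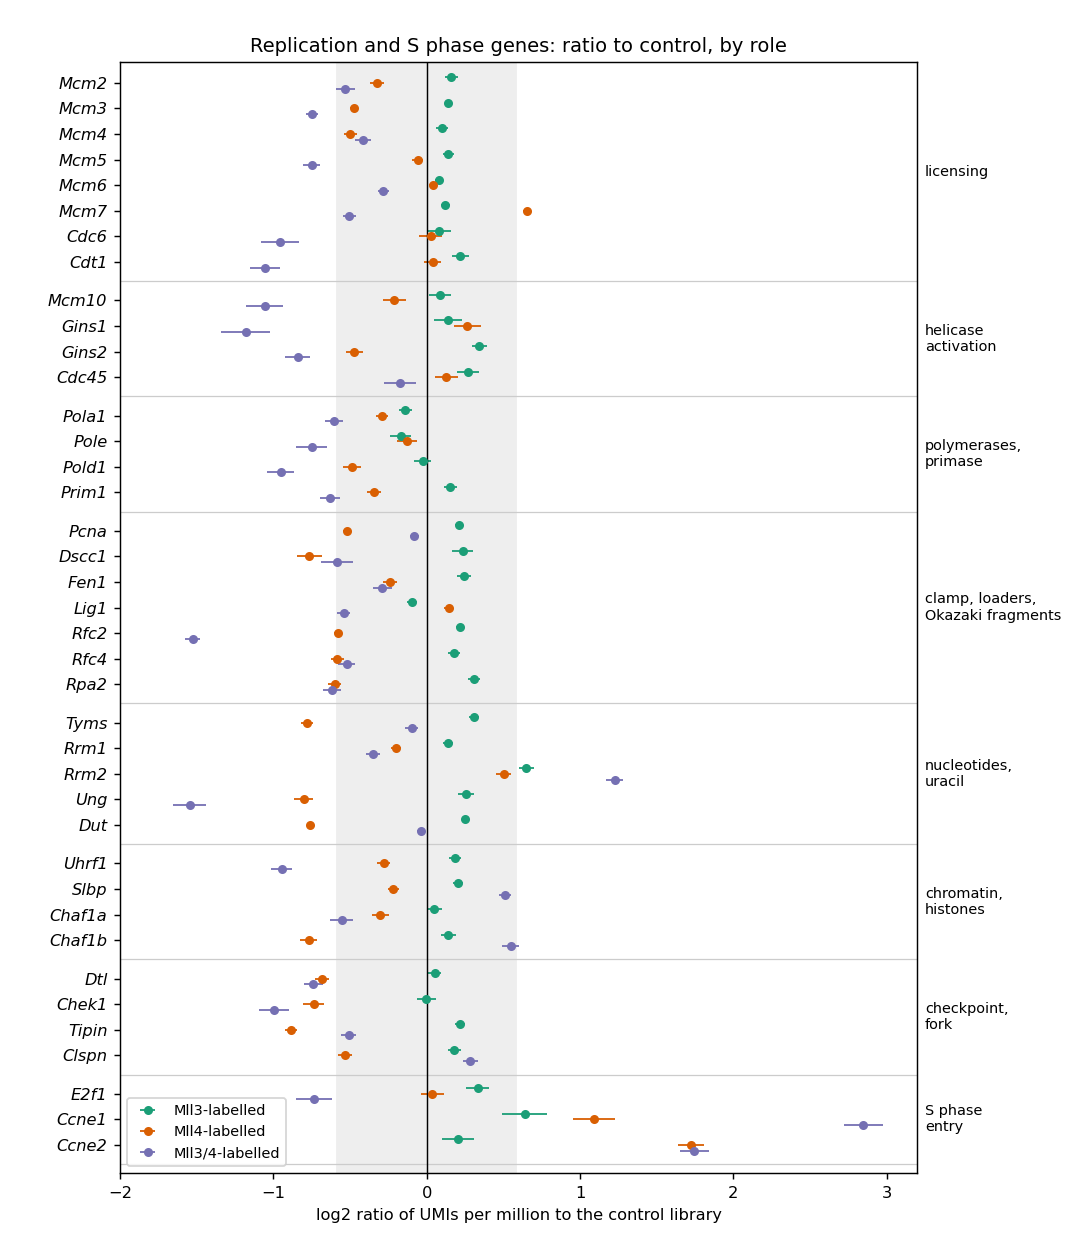
Log2 ratio to the control library for each of the 39 genes, grouped by role, in the Mll3-labelled (green), Mll4-labelled (orange) and Mll3/4-labelled (purple) libraries. Points are ratios of CPM, bars are 95% counting intervals and the grey band marks less than 1.5-fold. Most purple points lie to the left of 0, with Ccne1, Ccne2 and Rrm2 far to the right.

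Among the S phase entry genes, Ccne1 and Ccne2 had the highest ratios of the list in both libraries labelled Mll4 deleted. Ccne1 (ENSMUSG00000002068, chr7:38097984-38107534 on GRCm38), which encodes cyclin E1, was at 5.52, 8.60, 11.8 and 39.8 CPM. Every mutant library was above the control, and the Mll3/4-labelled one stood apart from the other 3. Its log2 ratio was 2.85 (2.72 to 2.98), a 7.20-fold higher level, against 0.64 (0.49 to 0.79) and 1.09 (0.96 to 1.23) for the single deletions. Ccne2 (ENSMUSG00000028212, chr4:11191351-11204779), which encodes cyclin E2, was at 12.7, 14.6, 41.8 and 42.5 CPM. Here the libraries fell into a low pair, the control and the Mll3-labelled one, and a high pair, both libraries labelled Mll4 deleted, with log2 ratios of 1.72 (1.64 to 1.81) and 1.74 (1.65 to 1.84). Without other-lineage barcodes the Mll4-labelled ratios were 1.23 for Ccne1 and 1.95 for Ccne2. Ints8 lies across Ccne2 on the other strand, and whether the counting used strand is not given in the sources used here. E2f1, an E2F activator that is itself raised at S phase entry, did not follow the cyclins and was at 24.1, 30.3, 24.7 and 14.5 CPM. Its ratios were 0.33 (0.26 to 0.40), 0.04 (-0.04 to 0.11) and -0.74 (-0.85 to -0.62). The Mll4-labelled ratio of E2f1 was 0.20 without other-lineage barcodes.

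Licensing genes were below the control in the Mll3/4-labelled library in 8 of 8 cases, 4 of them by at least 1.5-fold. Of all 5979 genes that reached a mean of 20 CPM there, 3349 were below it and 18.7% were lower by at least 1.5-fold. In the Mll4-labelled library 4 of the 8 were below the control and 4 above it, or 3 and 5 without other-lineage barcodes. Of all genes, 3658 of 6046 were below it there, or 3708 of 5953 without those barcodes. In both sets of barcodes 1 of the 8 was higher by at least 1.5-fold, where 11.8% and 9.34% of all genes were. Cdc6, a loader of the Mcm ring, was at 24.1, 25.6, 24.5 and 12.4 CPM, with a log2 ratio of -0.95 (-1.08 to -0.83) in the Mll3/4-labelled library. The other 3 libraries lay close together. Cdt1, the other loader, had ratios of 0.22, 0.04 (0.22 without other-lineage barcodes) and -1.05. Mcm5, a ring subunit, was at 102, 112, 98.0 and 60.6 CPM (-0.75 in the Mll3/4-labelled library, -0.81 to -0.69). Mcm6, another subunit, was at 205, 217, 211 and 169 CPM, with the Mll3/4-labelled ratio nearest to 0 in the ring (-0.28, -0.32 to -0.25). The subunits of 1 ring therefore did not share 1 ratio: Mcm2 and Mcm3 had -0.53 and -0.75 in the Mll3/4-labelled library, and Mcm4 -0.42. Mcm7 was at 158, 172, 248 and 111 CPM, the only ring subunit to be higher than the control by at least 1.5-fold in any library. This was in the Mll4-labelled library (0.65, 0.63 to 0.68; 0.85 without barcodes of other lineages), where Mcm3 was at -0.48 and Mcm4 at -0.50 (-0.27 and -0.30 without those barcodes). Mcm7 overlaps Cops6 and Ap4m1 on the other strand and hosts microRNAs, and its ratio is to be read with that limit.

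Helicase activation genes were lower in the Mll3/4-labelled library in 4 of 4 cases, 3 of them by at least 1.5-fold. Of all 5979 genes counted there, 3349 were lower and 18.7% were so by at least 1.5-fold. Mcm10, which helps to start the assembled helicase, was at 28.1, 29.9, 24.3 and 13.5 CPM (-1.06, -1.18 to -0.94, in the Mll3/4-labelled library). Gins2, a GINS subunit, was at 52.2, 66.2, 37.6 and 29.1 CPM. It was highest in the Mll3-labelled library (0.34, 0.29 to 0.39) and below the control in both others (-0.47, or -0.28 without other-lineage barcodes, and -0.84). Gins1, the neighbouring subunit, was at 16.8, 18.5, 20.2 and 7.42 CPM, with a Mll3/4-labelled ratio of -1.18 (-1.34 to -1.02). Cdc45, which binds the ring together with GINS, had ratios of 0.27, 0.13 (0.32 without other-lineage barcodes) and -0.17.

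Among the polymerases and primase, Pole and Pola1 had the lowest ratios of the list in the Mll3-labelled library. Pole, the catalytic subunit of the leading-strand polymerase, was at 32.9, 29.3, 30.1 and 19.6 CPM. Pola1, the polymerase that extends primers, was at 91.2, 82.9, 74.6 and 60.1 CPM. Both were highest in the control and lowest in the Mll3/4-labelled library, with Mll3-labelled ratios of -0.17 (-0.24 to -0.10) and -0.14 (-0.18 to -0.10) and Mll3/4-labelled ratios of -0.75 (-0.85 to -0.65) and -0.60 (-0.66 to -0.55). Pold1, of the lagging-strand polymerase, had ratios of -0.03, -0.49 and -0.95, and Prim1, the primase subunit that makes the RNA primer, 0.15, -0.34 and -0.63. Without other-lineage barcodes the Mll4-labelled ratios were 0.07 for Pole, -0.06 for Pola1, -0.33 for Pold1 and -0.13 for Prim1. All 4 were lower by at least 1.5-fold in the Mll3/4-labelled library, where 18.7% of all genes were.

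Clamp, clamp loader and Okazaki fragment genes separated widely. Pcna, the sliding clamp, was at 273, 315, 190 and 258 CPM, lowest in the Mll4-labelled library (-0.52, -0.54 to -0.49; -0.40 without other-lineage barcodes) and near the control in the Mll3/4-labelled one (-0.08, -0.11 to -0.05), where it turned to 0.03 under another scaling. Rfc2 (ENSMUSG00000023104, chr5:134581366-134601805), a subunit of the loader that places that clamp on DNA, was at 208, 242, 140 and 72.3 CPM. Its Mll3/4-labelled ratio of -1.53 (-1.58 to -1.48), a 2.88-fold lower level, was 1 of the 2 lowest of the list. Rfc4, of the same loader, was at 95.8, 108, 63.9 and 66.7 CPM with a ratio of -0.52 there. Lat2 overlaps Rfc2 on the other strand. Lig1, the ligase that joins Okazaki fragments, was at 154, 144, 170 and 106 CPM, with ratios of -0.10 (-0.13 to -0.06), 0.14 (0.11 to 0.17) and -0.54 (-0.59 to -0.50). Fen1, the nuclease that trims the fragments, had ratios of 0.24, -0.24 and -0.29, Rpa2, of the single-strand binding protein, 0.31, -0.60 and -0.62, and Dscc1, of an alternative clamp loader, 0.24, -0.76 and -0.58. Without other-lineage barcodes the Mll4-labelled ratios were 0.35 for Lig1, -0.07 for Fen1, -0.41 for Rpa2 and -0.51 for Dscc1. Of the 7 genes of this role 0 were then lower by at least 1.5-fold in the Mll4-labelled library, where 10.6% of all genes were. With those barcodes 2 were, where 13.8% of all genes were.

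**Figure D2:**
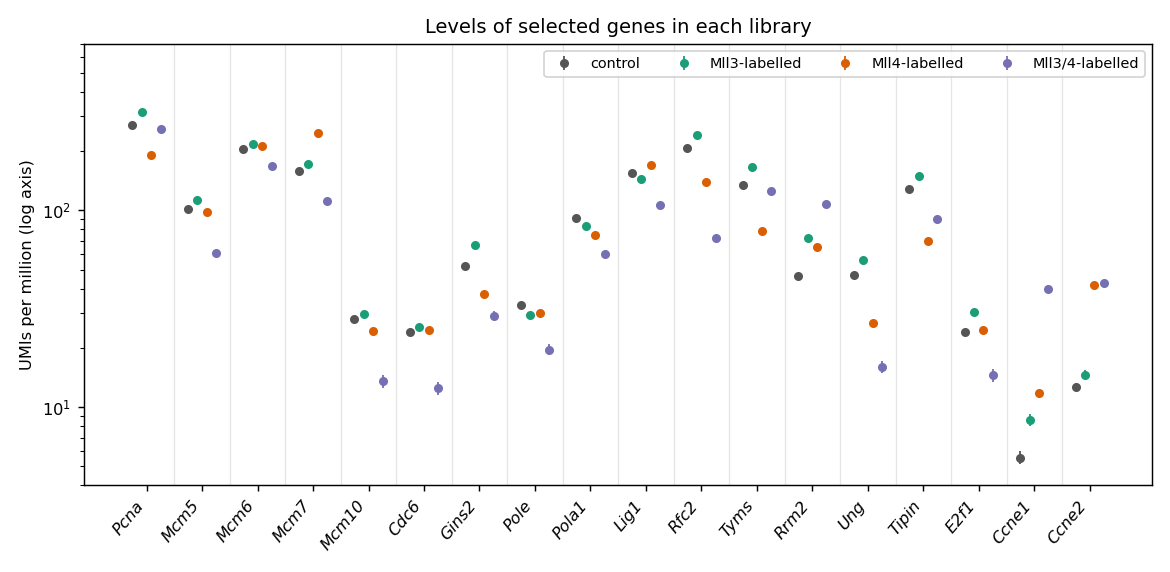
Levels of 18 genes in the 4 libraries as CPM on a log axis, with 95% counting intervals as bars, which are often smaller than the points. Ccne1 is highest and Ung, Rfc2 and Mcm10 are lowest in the Mll3/4-labelled library, and Ccne2 forms a low and a high pair.

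Nucleotide supply genes differed in direction. Rrm2 (ENSMUSG00000020649, chr12:24708241-24714146), the regulated subunit of ribonucleotide reductase, was at 46.2, 72.5, 65.4 and 108 CPM. It was above the control in all 3 mutant libraries, with log2 ratios of 0.65 (0.60 to 0.70), 0.50 (0.45 to 0.55) and 1.23 (1.17 to 1.28). The Mll3-labelled level includes 177 B-lineage-marker barcodes with Rrm2 at 344 CPM. Without them no listed gene was higher by at least 1.5-fold in that library. Rrm1, the large subunit of the same enzyme, was at 138, 152, 121 and 109 CPM and had 0.14, -0.20 and -0.35. Without other-lineage barcodes the Mll4-labelled ratios were 0.65 for Rrm2 and -0.006 for Rrm1. Tyms, thymidylate synthase, was at 134, 166, 78.0 and 125 CPM, lowest in the Mll4-labelled library (-0.78, -0.82 to -0.74; -0.60 without barcodes of other lineages). Dut, which clears dUTP, had ratios of 0.25, -0.76 (-0.54 without those barcodes) and -0.04. Ung (ENSMUSG00000029591, chr5:114130386-114139323), the glycosylase that removes uracil from DNA, was at 46.7, 55.8, 26.7 and 16.0 CPM. The Mll3/4-labelled level was 2.92-fold below the control (-1.55, -1.65 to -1.44), the lowest ratio among the 39 genes, and the Mll4-labelled ratio was -0.80 (-0.87 to -0.74; -0.57 without barcodes of other lineages).

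Chromatin and histone supply genes divided in the Mll3/4-labelled library. Uhrf1, which guides maintenance methylation of new DNA, was at 84.8, 96.5, 69.8 and 44.0 CPM, and Chaf1a, the large subunit of a histone chaperone, at 53.6, 55.5, 43.5 and 36.5 CPM. Chaf1b, the partner of Chaf1a in that chaperone, was at 58.9, 65.0, 34.6 and 86.2 CPM, and Slbp, which binds histone messages, at 124, 143, 107 and 177 CPM. Chaf1b and Slbp were therefore highest where Uhrf1 and Chaf1a were lowest, with ratios of 0.55 (0.49 to 0.60) and 0.51 (0.47 to 0.55) against -0.95 and -0.55. In the Mll4-labelled library Chaf1b was at -0.77 and Slbp at -0.22, or -0.59 and -0.10 without other-lineage barcodes. The predicted gene Gm49617 overlaps Chaf1b on the same strand.

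Checkpoint and fork protection genes were below the control in the Mll4-labelled library in 4 of 4 cases, where 3658 of all 6046 genes were. By at least 1.5-fold 3 of the 4 were lower, where 13.8% of all genes were, and 1 of the 4 without other-lineage barcodes, where 10.6% of all genes were. Tipin, part of the complex that steadies stalled forks, was at 129, 150, 69.8 and 90.6 CPM, and its Mll4-labelled ratio of -0.88 (-0.92 to -0.85) was the lowest of the list there. It was -0.69 without barcodes of other lineages. Dtl, which marks Cdt1 for destruction in S phase, had ratios of 0.05, -0.68 and -0.74. Chek1, the replication checkpoint kinase, was at 38.7, 38.7, 23.2 and 19.4 CPM, with Mll4-labelled and Mll3/4-labelled ratios of -0.74 and -0.99. Without other-lineage barcodes the Mll4-labelled ratios of Dtl and Chek1 were -0.45 and -0.49. Clspn, the adaptor that activates Chek1, was at 78.8, 89.3, 54.5 and 96.0 CPM and so was above the control in the Mll3/4-labelled library (0.28, 0.23 to 0.33) where its kinase was below it. In the Mll4-labelled library Clspn was at -0.53, or -0.33 without other-lineage barcodes.

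The other genes of the pathway, 70 that are not on the list, were counted in the same way. By 1.5-fold, 0 of them were lower or higher in the Mll3-labelled library, 6 were lower and 1 higher where Mll4 alone was labelled deleted, and 17 were lower and 7 higher where both genes were, with median ratios of 0.13, -0.18 and -0.34. The shares of all genes were those given above for each library, 13.8% and 11.8% and then 18.7% and 13.1%, and the counts of the 70 genes lay below the first pair and near the second. Without other-lineage barcodes 3 were lower and 1 higher in the Mll4-labelled library, with a median of -0.06. E2f2, another E2F activator, was at 9.54, 13.4, 5.77 and 186 CPM, a log2 ratio of 4.28 in the Mll3/4-labelled library, where E2f1 and E2f3 were lower (-0.74 and -0.67). Dck, which salvages deoxynucleosides, was at 29.2, 38.1, 22.9 and 171 CPM, and Samhd1, which degrades deoxynucleotides, at 60.1, 66.6, 120 and 10.6 CPM. The Mll3/4-labelled library was thus the highest for Dck and the lowest for Samhd1 (2.55 and -2.51). Asf1b, a histone chaperone that hands histones to the Chaf1 complex, was higher there like Chaf1b, at 73.2 CPM against 32.0 in the control. Timeless, the partner of Tipin, had ratios of 0.30, -0.72 and -1.49. These genes were picked for naming after their values were seen.

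Shares of barcodes were compared next, each barcode thinned to 3000 UMIs because depth differed between libraries. A barcode was called S-high when at least 10 of the 39 genes had a UMI, a range on a continuous count and not a cell type. S-high barcodes were 2344 of 7260 in the control (32.3%, exact binomial interval 31.2 to 33.4) and 2281 of 6084 where Mll3 was labelled deleted (37.5%, 36.3 to 38.7). They were 950 of 4659 where Mll4 was (20.4%, 19.2 to 21.6) and 952 of 4715 where both were (20.2%, 19.1 to 21.4). Barcodes under 3000 UMIs, 14, 17, 134 and 33 of them, were left out. The Mll3-labelled share lay above and both others below the control beyond counting error. Near the limit, 357, 264, 178 and 179 barcodes had 9 of the genes and 327, 252, 174 and 166 had 10. Unthinned, the shares were 67.7%, 71.2%, 53.8% and 46.2%. The median barcode held 6, 7, 3 and 4 of the genes, and the Mll4-labelled share depended on its other-lineage barcodes, of which 7.82% (6.69 to 9.07) were S-high. Without them it was 30.1%, near the control's 32.2%, while the Mll3-labelled and Mll3/4-labelled shares were 37.3% and 20.2%. Among Mll4-labelled barcodes the share was 4.58% with macrophage or monocyte markers, 4.84% with T, NK or innate lymphoid markers and 6.15% with mast cell or basophil markers. It was 14.7% with plasma or mature B markers and 23.0% with neutrophil markers. Whether these barcodes divide was not tested.

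**Figure D3:**
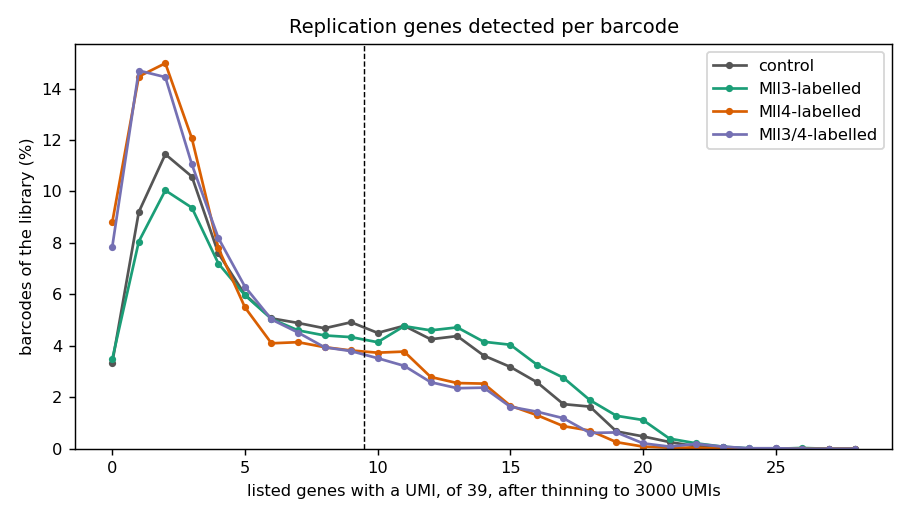
Number of the 39 genes with a UMI per barcode after thinning to 3000 UMIs, as a percent of the barcodes of each library, with the dashed line at the limit of 10 genes. The Mll4-labelled and Mll3/4-labelled curves have more barcodes with 0 to 3 genes and fewer beyond the line, and no curve has a gap at the line.

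The summed level of the listed genes within S-high barcodes was 6087, 6595, 5356 and 6450 CPM, and in the remaining barcodes it was 2067, 2086, 1962 and 1682 CPM. Without other-lineage barcodes the Mll4-labelled sums were 5472 and 2248 CPM, so that the remaining barcodes were then above the control's 2067. The Mll3/4-labelled library, which had the lowest sum, was thus above the control in this sum within S-high barcodes (log2 0.08) and below it in the rest (-0.30). S-high barcodes were chosen on these genes, so their level there is a description. Genes with high levels weigh most in a sum, and most single genes did not follow it. In the Mll3/4-labelled S class, defined in the next paragraph, the median log2 ratio over the listed genes was -0.20. Only 10 of them were above the control there, a count that has no share over all genes beside it.

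The listed genes also differed in where in the cycle they were found. Barcodes were divided into those with at least 6 of 22 G2 and mitosis genes (G2M), those with at least 10 listed genes but fewer of the 22 (S), and neither, the gene in question being left out of its own count. The G2M class held 22.7%, 25.3%, 20.1% and 16.0% of barcodes and the S class 22.5%, 24.2%, 14.3% and 13.4%. Without other-lineage barcodes the Mll4-labelled shares were 28.6% in G2M, above the control's 22.5%, and 21.2% in S, against 22.4%. Summed levels of the 22 genes were 2598, 2996, 2609 and 3160 CPM, an order that goes against the share in the Mll3/4-labelled library, and no order is read from that share. All 39 genes were higher in S than in neither in all 4 libraries, with median log2 differences of 1.84, 2.12, 1.70 and 2.07, a description of classes that were chosen on the list. The medians of G2M over S were -0.79, -0.62, -0.79 and -0.60. Ung had the lowest ratio of G2M over S in each library, going from 118 to 11.8 CPM in the control and from 58.4 to 4.52 CPM in the Mll3/4-labelled library. Rrm1 and Tyms, in contrast, were still at 217 and 195 CPM in control G2M barcodes, against 185 and 210 in S.

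In the Mll3/4-labelled library the listed genes showed another order along these classes. There, 11 of the 39 genes were higher in G2M than in S, against 1 in the control, 3 where Mll3 was labelled deleted and 0 where Mll4 was. These counts have no share over all genes beside them and describe the listed genes only. Rrm2 was at 121 CPM in S and 308 in G2M in the Mll3/4-labelled library, while it was at 78.7 and 67.8 in the control. Tyms went from 171 to 315 CPM, and Mcm10 from 18.3 to 33.8. Pcna was at 720 CPM in S and 291 in G2M against 476 and 276 in the control. A level near the control in the whole library went with a higher one in its S class (0.60, 0.55 to 0.64). That class held 13.4% of barcodes against 22.5%, a share that also depends on the level of the listed genes. Mcm6, whose library ratio was -0.28, was at -0.01 in the S class and -0.56 in the G2M class.

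In the Mll3/4-labelled library the ratios of Ccne1, Ccne2, Rfc2 and Ung had the same sign in all 3 classes. So did those of most other listed genes, among them Mcm3, Gins1, Cdt1, Slbp and Chaf1b. Ccne1 in the Mll3/4-labelled library was above the control by 2.64 in neither, 3.14 in S and 3.68 in G2M barcodes, with levels of 9.19, 107 and 68.5 CPM against 1.46, 12.1 and 5.33. Ccne2 was above it by 1.09, 2.17 and 2.49 in the Mll3/4-labelled and by 2.29, 2.01 and 1.47 in the Mll4-labelled library (2.64, 2.03 and 1.52 without other-lineage barcodes). The ratios of Ccne2 that were alike in the summed libraries were thus unlike in the classes, highest in dividing barcodes in one and in the remaining barcodes in the other. In the Mll3/4-labelled library Rfc2 was at -1.58, -1.43 and -1.14 and Ung at -1.51, -1.02 and -1.37 in the 3 classes. Cdc6 and E2f1, lower in that library as a whole, differed less in S (-0.20 and -0.10) than in neither (-1.64 and -0.76).

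**Figure D4:**
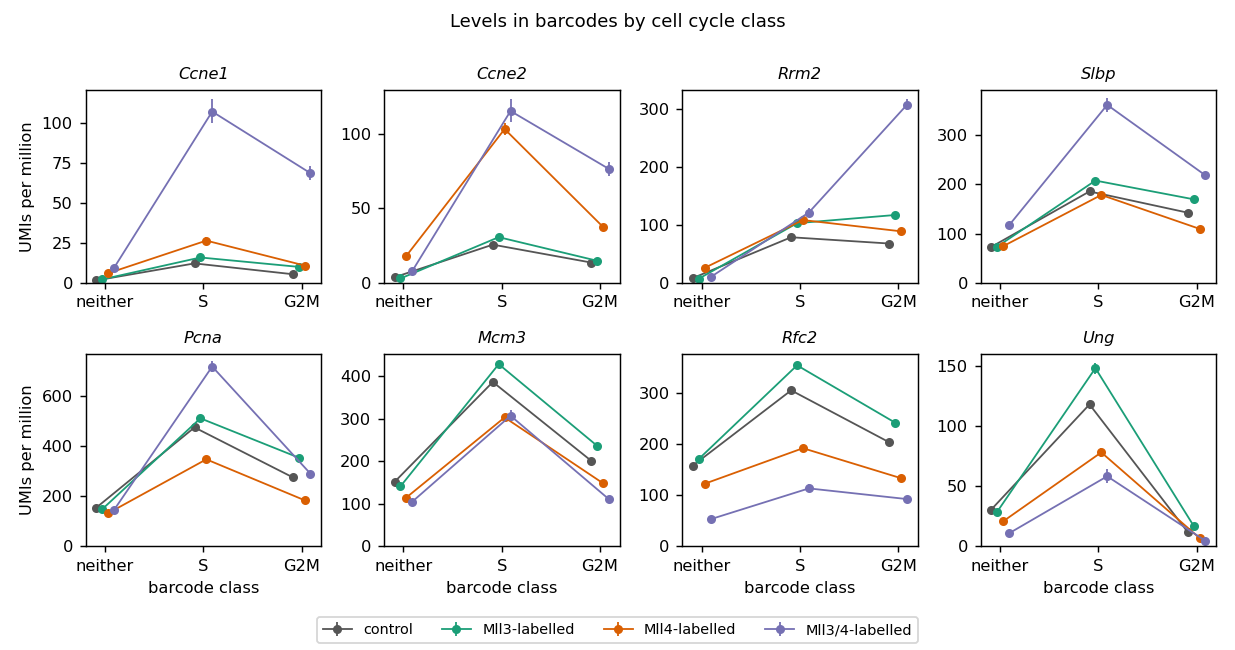
Levels of 8 genes as CPM in barcodes of the classes neither, S and G2M in each library, with 95% counting intervals as bars. Ccne1, Slbp and Pcna peak in S in the Mll3/4-labelled library, above the other libraries, and Rrm2 alone of the 8 climbs from S to G2M there by more than 2-fold.

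Surface CD150 and CD48 divide LSK cells into subsets, with CD150+CD48- cells richest in stem cells and CD48+ cells in progenitors. In the control, S-high barcodes were 21.2% (19.5 to 23.0) of the CD150+CD48- group and 16.6% (14.2 to 19.3) of the CD150-CD48- group, against 45.7% (41.2 to 50.2) of the CD150+CD48+ and 40.3% (38.7 to 41.9) of the CD150-CD48+ group. The Mll3-labelled shares in the same order were 31.8%, 29.4%, 50.5% and 50.3%, so that they lay above the control beyond counting error in 3 of the groups and within it in CD150+CD48+. Mll4-labelled shares were 29.2% and 25.9% in the CD48- groups, above the control, and 33.5% and 18.0% in the CD48+ groups, below it. Mll3/4-labelled shares were 19.4%, 23.3%, 17.6% and 23.1%, with no gap between the CD48- and CD48+ groups like that of the control. This depended on how the antibody counts were scaled: without centring, the shares were 30.4% (21.7 to 40.3), 19.5%, 32.4% (18.0 to 49.8) and 21.2%, with 102 and 37 barcodes in the CD150+ groups. Without other-lineage barcodes the Mll4-labelled shares were 29.4%, 28.3%, 42.9% and 29.5%.

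**Figure D5:**
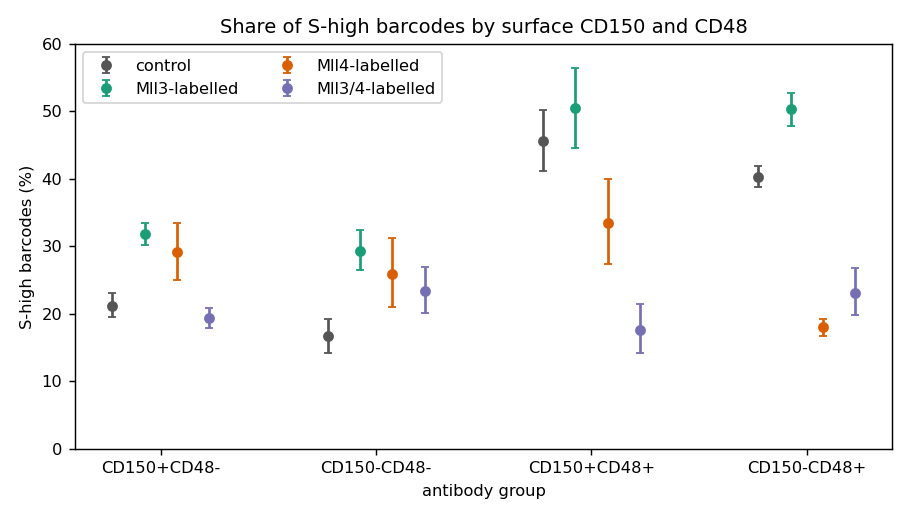
Share of S-high barcodes in each of 4 groups by surface CD150 and CD48, in percent with exact 95% binomial intervals as bars. Control and Mll3-labelled shares are higher in both CD48+ groups than in both CD48- groups, and Mll3/4-labelled shares stay between 17.6% and 23.3%.

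List medians of the ratio to control were then taken within the groups. Those of the Mll3-labelled library were 0.38 in CD150+CD48-, 0.53 in CD150-CD48-, 0.14 in CD150+CD48+ and 0.27 in CD150-CD48+, with medians of all genes between 0.06 and 0.10. For the Mll4-labelled library they were 0.18, 0.20, -0.30 and -0.55, with all genes between -0.13 and -0.08, and without other-lineage barcodes 0.21, 0.27, -0.11 and -0.32. Mll3/4-labelled medians were -0.28, 0.03, -0.82 and -0.62, with all genes between -0.10 and -0.07. The second of these turned to -0.03 and to -0.20 with other antibody thresholds. CD150 counts of the Mll3/4-labelled library formed 1 mode, and the CD150+CD48- group held 64.9% of its barcodes on centred counts and 2.17% on counts that were not centred, so its CD150 groups split a continuous signal.

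Gene by gene, 29 of the 39 genes were above the control in all 4 groups of the Mll3-labelled library and 0 below it, where 46.3% and 20.1% of all genes were. For the Mll4-labelled library 4 genes were above and 8 below in all 4 groups, where 22.3% and 40.4% of all genes were. Without other-lineage barcodes 8 were above and 8 below, counts that have no share over all genes beside them and describe the list only. For the Mll3/4-labelled library 5 were above and 19 below, where 29.2% and 41.6% of all genes were. Rrm2 was above the control in every group of all 3 mutant libraries, with ratios from 0.72 to 1.25, from 0.13 to 1.10 and from 0.59 to 2.72. Ccne1 lay between 2.26 and 4.25 in the Mll3/4-labelled groups, and Ccne2 between 1.44 and 2.29 in the Mll4-labelled and between 1.31 and 2.49 in the Mll3/4-labelled groups. Rfc2, Ung and Gins1 were lower in each Mll3/4-labelled group, Rfc2 between -1.74 and -1.24, Gins1 between -1.08 and -0.72 and Ung down to -1.70. Mcm7 was higher in each Mll4-labelled group (0.46 to 1.16). Tyms depended on the group, at 0.32 and 0.95 in the CD48- and -0.59 and -0.17 in the CD48+ groups of the Mll3/4-labelled library.

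Because B-lineage-marker barcodes made up 99.1% of the Mll3/4-labelled library, its listed genes were also set beside the 177 such barcodes of the Mll3-labelled library, the only other library with at least 50. S-high barcodes were 140 of these 177 (79.1%, 72.4 to 84.8) and 936 of the 4673 Mll3/4-labelled ones (18.9% to 21.2% by the interval). Summed levels of the 39 genes were 6847 and 2938 CPM. The median log2 ratio of Mll3/4-labelled over Mll3-labelled barcodes was -1.33, against -0.10 over all genes, with 34 genes lower and 1 higher by at least 1.5-fold where 26.3% and 18.6% of all genes were. Median depths were 23452 and 8921 UMIs in the Mll3-labelled and Mll3/4-labelled barcodes, and whether both sets hold the same stages of B-cell development was not tested.

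Against these barcodes the order of the genes changed. Rrm2, above the control in the summed Mll3/4-labelled library, was at 344 CPM in the Mll3-labelled B-lineage-marker barcodes and 109 in the Mll3/4-labelled ones (-1.66, -1.74 to -1.58). Gins1 and Uhrf1 had the lowest ratios (-2.53 and -2.47), Uhrf1 going from 240 to 43.3 CPM. Rfc2 had -1.59 and Ung -1.38. Ccne1 was at 33.1 and 40.2 CPM (0.28, 0.04 to 0.54) and Chaf1b at 78.1 and 86.8 CPM (0.15, -0.01 to 0.32). The distance of Ccne1 between these sets was thus smaller than its distance from the control. The ratio of Ccne1 was still far above the list median of -1.33, with 36 listed genes below 0 and 3 above it. The sets differed in S-high share, and Ccne1 was higher in S than in neither barcodes. Whether the levels of Ccne1 differ at equal S-high shares was not tested. Ccne2 was the 1 gene higher by the fold, at 25.5 and 43.0 CPM (0.75, 0.48 to 1.04). Slbp was at 251 and 177 CPM.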

How the data were processed

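The 4 single-cell libraries, 1 per genotype, were measured with 10x 3-prime chemistry and 6 antibody barcodes. The deposited files hold raw counts of UMIs per gene or antibody and barcode, written by Cell Ranger 6.1.1 per the file headers, on mm10 per the submitters' processing notes. The aligner settings, the use of strand and the barcode filter are not given in the sources used here. Of 7682, 6560, 7702 and 5136 deposited barcodes, 94.7%, 93.0%, 62.2% and 92.4% passed the limits on genes and mitochondrial UMIs. Of the 32285 gene IDs, 32235 (99.8%) were in GENCODE on GRCm38.

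CPM is a gene's UMIs over all gene UMIs of the kept barcodes, with exact Poisson intervals. Log2 ratios had 0.5 UMIs added. Shares have Clopper-Pearson intervals. PCR and capture are shared within a library, so all intervals cover counting error only. No replicates exist, so no test was made; 1.5-fold marks a size, not significance. Barcodes were thinned once to 3000 UMIs with a fixed seed. Other-lineage barcodes had at least 3 markers of a lineage at 2 or more UMIs. Antibody counts plus 1 were put on a natural log scale and centred over the 6 antibodies. Barcodes were then split into those above and those not above a threshold, where the components of a Gaussian mixture cross. Doublets were not removed: Scrublet's own threshold marked 3, 3, 171 and 1 barcodes, too few to have worked in 3 of the libraries, and a removal at the rate expected from loading was tried as an alternative.

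The 39 members and all lists were chosen with earlier results of these data known. Genes named by rule were the 3 highest and the 3 lowest of each mutant library among members with a mean of at least 20 CPM, with Pcna, Mcm5, Mcm6, Tyms, Rrm2, Ccne1, Ccne2, E2f1 and Cdc6 added. Other genes, such as Gins1, Chaf1b, Slbp and Clspn, were singled out after seeing their values. The counting code was tested on simulated data. Software was Python 3.11.15, numpy 2.4.6, scipy 1.17.1, scikit-learn 1.9.0, scanpy 1.11.5, edgeR 4.0.16 (TMM factors only) and matplotlib 3.10.9.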

Additional observations from a re-analysis of the deposited data

How the results depend on the processing

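Of the values recomputed for the list, the shares and the antibody groups, 154 moved by less than their counting interval or by less than 1.5 times for a count, 61 moved by more and 2 changed sign. Replicates do not exist, so none was left out. No paired analysis was possible because each genotype has 1 library. Leaving out B-lineage-marker barcodes and, for single members, antibody groups and cycle classes, other-lineage barcodes were alternatives chosen after seeing the data. The cause of a change was not tested unless the setting itself names it.

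The Mll3-labelled list median of 0.18 was 0.08 with TMM, 0.08 with median-of-ratios factors, 0.09 without mitochondrial and ribosomal protein genes in the total, 0.31 with antibody groups weighted to the control's shares and 0.13 without B-lineage-marker barcodes. Its count of 2 higher genes was 0 with TMM, with median-of-ratios factors, without mitochondrial and ribosomal genes, at 2-fold and without B-lineage-marker barcodes, and 1 without other-lineage barcodes. The Mll4-labelled median of -0.30 was -0.36 without mitochondrial and ribosomal genes, -0.41 with 2000 genes and 5% mitochondrial UMIs as limits, -0.10 without other-lineage barcodes and -0.51 with equal weight per barcode. Its count of 9 lower genes was 14, 3 and 17 under the last 3 of these and 0 at 2-fold. The 14, the 17 and the Mll3-labelled counts other than that at 2-fold have no share of all genes beside them and describe the list only. The Mll3/4-labelled median of -0.55 was -0.45 with median-of-ratios factors, which gave 5 higher genes, a count that also has no such share. At 2-fold 5 genes were lower. At 2-fold all genes were lower or higher in 0.345% and 0.575%, 3.08% and 5.77%, and 8.75% and 7.53% of cases.

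S-high shares depended on the limit more than on counting. In the control the 32.3% became 34.6% at 2000 UMIs with 7 genes, 29.9% at 5000 UMIs with 15 genes, 41.9% with 8 genes, 23.0% with 12 genes, 39.7% with the stricter barcode limits and 67.7% unthinned. The Mll3-labelled share became 39.1%, 34.8%, 46.2%, 28.6%, 46.3% and 71.2% in that order, and 36.2% without B-lineage-marker barcodes. The Mll4-labelled share became 28.2% with 8 genes, 12.9% with 12, 24.0% with stricter limits, 30.1% without other-lineage barcodes and 53.8% unthinned. The Mll3/4-labelled share became 22.6% at 2000 UMIs, 27.9% with 8 genes, 13.4% with 12, 25.3% with stricter limits and 46.2% unthinned.

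Antibody counts that were not centred gave, in CD150+CD48-, S-high shares of 23.5% in the control, 29.7% in the Mll3-labelled and 30.4% in the Mll3/4-labelled library, with list medians of 0.18 and -0.08 for the last 2. They gave 19.5% and a median of -0.03 for Mll3/4-labelled CD150-CD48- barcodes, the first change of sign, and 26.0% and 32.4% for Mll4-labelled and Mll3/4-labelled CD150+CD48+ barcodes. Thresholds set in each library gave, in CD150-CD48-, 25.3% and a median of 0.26 for the Mll3-labelled library and a median of -0.20 for the Mll3/4-labelled one, the second change of sign. They gave 40.7% for Mll4-labelled CD150+CD48+ barcodes, and 47.1% with a median of 0.21 for Mll3-labelled CD150-CD48+ barcodes. Without other-lineage barcodes the Mll4-labelled share was 42.9% in CD150+CD48+ and 29.5% in CD150-CD48+, with a median of -0.32 in the last. Of the genes named by rule, Cdc6, Mcm6 and Mcm10 in the Mll3-labelled library and Pcna and Tyms in the Mll3/4-labelled library changed sign with the scaling, all from ratios near 0. Other members had ratios smaller than a scaling shift of the opposite sign. These were Mcm4 (0.0988), Dtl (0.05) and Chaf1a (0.05) in the Mll3-labelled, Dut (-0.04) in the Mll3/4-labelled and Cdt1 (0.04) in the Mll4-labelled library. In the Mll4-labelled library Cdc6, E2f1, Mcm6, Mcm5, Pole and Lig1 did so with the scaling or the barcodes counted, and Lig1 in the Mll3-labelled library with antibody weighting. Depth was lowest in the Mll3/4-labelled library, and genes under 20 CPM there rest on few UMIs per barcode.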
